A study of Homo sapiens with 20 samples.

Results

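This report describes 32 genes of the lysosome and its proton pump, the vacuolar ATPase (V-ATPase), in the neuroblastoma line IMR-32, an established human cell line. The genes were listed by name for their known roles, by a rule that uses no measured value: 17 encode subunits or accessory proteins of the pump, 4 lysosomal membrane proteins, 8 proteins of the lysosomal lumen and 3 transcription factors of the TFEB family. All 32 were among the 58787 genes of the deposited count table, and 30 were among the 13729 genes with enough counts to be tested.

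The V-ATPase is a rotary motor that pumps protons into endosomes, lysosomes and secretory vesicles. Its V1 sector lies in the cytosol and splits ATP, which turns a ring of small proteins in the membrane-bound V0 sector and carries protons across. The acid lumen activates the hydrolases that degrade endocytosed and autophagic cargo, so the pump stands at the end of the endocytic route. TFEB, TFE3 and MITF are transcription factors of 1 family that, when they reach the nucleus, switch on many lysosomal genes through a short palindromic promoter site, the CLEAR element.

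RNA was measured in 20 libraries made from the 3′ ends of transcripts, in 5 groups of 4, after 24 h of treatment. All cells were labelled wild type and belonged to 1 labelled batch. Control cells received the vehicle DMSO. Dyngo-4a, which blocks dynamins, the GTPases that pinch off endocytic vesicles, was given at a low dose of 1 µM in 1 group and at a high dose of 2.26 µM in another. Prexasertib, an inhibitor of the checkpoint kinase CHK1, was given alone at 2 nM in a further group, and the combination group received both compounds at doses that the sources used here do not give. Separate cultures are not stated for the libraries within a group, so the p-values measure the spread between these libraries, which may be technical.

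Library totals ran from 3960885 to 6537843 counts, and 3 counts, the most that a count of 0 allows, were 0.757 CPM (a gene's count relative to the total of its library) where the total was smallest and 0.459 where it was largest. The 7 markers of adrenergic neuroblasts were detected in every group and summed to 4555 to 5552 CPM per library. TH was the lowest of them, averaging 1.1 CPM over all libraries. The 9 mesenchymal or Schwann cell markers summed to 36.6 to 64.9 CPM, with PRRX1 and SOX10 at 0. COL1A1 and SNAI2 were the highest of these, averaging 30.4 and 11.5 CPM. The 6 macrophage markers, cells rich in lysosomes, summed to 0 to 3.77 CPM. The noncoding nuclear RNA MALAT1 took 1.35% ± 0.417 (SD, n = 4) of the counts under DMSO, 2.96% ± 0.157 at the high dose and 2.33% ± 0.538 in the combination, so its share moved with the groups in which genes were called below, and its part in these results was not tested. In bulk RNA, fewer cells of a type and less RNA per cell cannot be told apart.

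Promoter sequences show which members carry the letters of the TFEB family site. RefSeq promoters on GRCh38.p14, from 250 bases before to 50 after the gene start, were matched for 24 of the 32 members; ATP6V0E1, ATP6V1A, ATP6V1B2, ATP6V1C1, ATP6V1H, LAMP2, CTSB and HEXA had no entry. The CLEAR core TCACGTGA, which reads the same on both strands, stood in 5 of the 24 (20.8%) and in 344 of all 35116 promoters (0.98%). The wider E-box core CACGTG, which lies inside it, stood in 8 of the 24 (33.3%) and in 2548 of all promoters (7.26%). The members were listed for lysosomal roles, and the site is known from lysosomal genes, so these shares are no test. Members were also cut to 1 promoter per gene, while all promoters were not. The windows below hold all 7 CLEAR core matches, followed by the E-box windows of 2 pump genes that were called at the high dose. Each is written 5′ to 3′ on the strand of the gene, with the matched core in capitals.
ATP6V1G1 (chr9:114587699-114587728, plus strand): acgctgtgcggTCACGTGAcaacgggggcg
LAMP1 first match (chr13:113297199-113297228, plus strand): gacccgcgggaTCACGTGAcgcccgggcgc
LAMP1 second match (chr13:113297226-113297255, plus strand): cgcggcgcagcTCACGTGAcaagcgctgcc
ATP6V0D1 (chr16:67481199-67481228, minus strand): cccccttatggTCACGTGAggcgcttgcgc
MCOLN1 first match (chr19:7522571-7522600, plus strand): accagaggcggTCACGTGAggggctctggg
MCOLN1 second match (chr19:7522598-7522627, plus strand): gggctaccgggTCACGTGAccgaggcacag
CTSA (chr20:45891298-45891327, plus strand): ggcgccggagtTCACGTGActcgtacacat
ATP6V0E2 (chr7:149872884-149872913, plus strand): tcccttctgcatCACGTGgggactgcgcct
ATP6V0B first match (chr1:43974891-43974920, plus strand): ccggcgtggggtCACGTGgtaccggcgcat
ATP6V0B second match (chr1:43974909-43974938, plus strand): gtaccggcgcatCACGTGggcgagttaggt
Matches in the pump genes ATP6V1G1, ATP6V0D1 and ATP6V0E2 and the membrane protein gene LAMP1 all began before the promoter entry's gene start. The second LAMP1 match began at -2 and ran across that start. In the GENCODE 29 annotation ATP6V0D1 starts at 67481237 on the minus strand, so its printed window lies after that start. A match is a description of the sequence only, and no binding was measured here.

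Levels of the members spanned a wide range. A 3′ library yields about 1 tag per transcript, so CPM were not divided by gene length. Averaged over the 20 libraries, the highest was ATP6V1G1, a peripheral stalk subunit that links V1 to V0, at 252 CPM. It was followed by ATP6V0B, a proton-carrying proteolipid of the V0 ring, at 167 CPM and LAMP1, the abundant glycoprotein of the lysosomal membrane, at 110 CPM. At the low end stood MCOLN1, the lysosomal cation channel, at 4.89 CPM, NPC2, the lumenal cholesterol carrier, at 3.85 CPM and TFEB at 2.06 CPM. ATP6V0C, which encodes the main proteolipid of the V0 ring, had 0 counts in all 20 libraries. Its locus (chr16:2513870-2520218, plus strand, GENCODE 29 on GRCh38) shares exons on the same strand with 2 annotated genes, AC093525.2 and AC093525.1, which were at 0 counts too, and the sources used here do not say how reads in shared exons were counted. The cysteine protease gene CTSZ had 1 count in each of 2 libraries. These 2 genes were not tested.

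**Figure D1:**
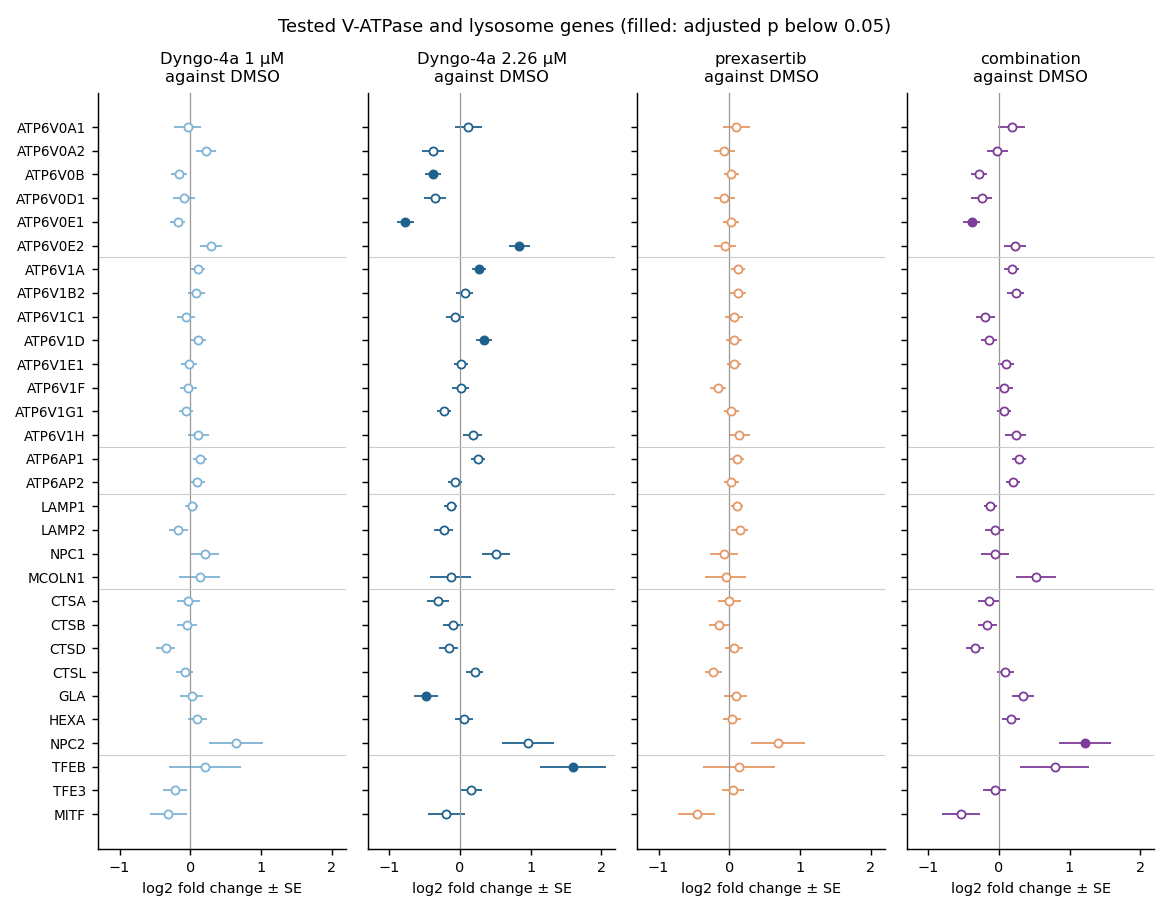
Log2 fold changes against DMSO (x axis, with bars of ± 1 standard error) of the 30 tested genes (y axis, grouped from top to bottom as V0, V1, accessory, membrane, lumen and TFEB family) in the 4 treated groups; filled points have an adjusted p below 0.05. Filled points number 0 at the low dose, 7 at the high dose, 0 under prexasertib and 2 in the combination.

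At the high dose of Dyngo-4a, members differed from DMSO in both directions. Against DMSO, 7 of the 30 tested members passed the test (23.3%), 4 higher and 3 lower, where 25.2% of all tested genes did (12.5% higher and 12.7% lower), so the members' share was close to the background. The members rising were ATP6V0E2, ATP6V1A, ATP6V1D and TFEB, and those falling were ATP6V0E1, ATP6V0B and GLA. The median log2 fold change was -0.03 over the members and 0.00 over all tested genes, and the median size regardless of sign was 0.22 and 0.27. In 7 of the 30 the libraries of both groups did not overlap, where 23.3% of all tested genes had no overlap. The plot of fold changes shows points on both sides of 0 in every role group with 3 or more genes.

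The smallest adjusted p values among the members belonged to both genes for subunit e of the V0 sector, a small membrane protein, which moved in opposite directions. ATP6V0E1 (chr5:172983757-173035445, plus strand) measured 109, 102, 89.9 and 141 CPM in the 4 DMSO libraries, 104, 102, 85.4 and 101 at the low dose and 64.1, 64.3, 64.6 and 67.4 at the high dose. Every high-dose library lay below every DMSO and low-dose library. It fell from 111 ± 22.0 to 65.1 ± 1.54 CPM (SD, n = 4 each), a log2 fold change of -0.77 ± 0.12 (SE; adjusted p = 4.95e-06, edgeR). Against the low dose it fell by 0.59 ± 0.12 (adjusted p = 0.000318).

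ATP6V0E2 (chr7:149872968-149891204, plus strand), the second gene for subunit e, measured 21.3, 20.3, 13.9 and 22.9 CPM under DMSO, 27.4, 23.7, 21.6 and 23.4 at the low dose and 33.3, 35.3, 33.0 and 38.9 at the high dose. Here every high-dose library lay above every library of both other groups. It rose from 19.6 ± 3.95 to 35.1 ± 2.73 CPM (SD, n = 4), a log2 fold change of 0.84 ± 0.15 (SE; adjusted p = 4.51e-05, edgeR), and by 0.55 ± 0.14 against the low dose (adjusted p = 0.0055). Its exons overlap those of an antisense gene, ATP6V0E2-AS1, which had 118 counts over all libraries against 2550 for ATP6V0E2, and the sources used here do not give the strand setting of the counting. Both calls on each of these genes held without any single library. With replicates 1 and 3 alone the ATP6V0E2 call against the low dose was lost (0.45, adjusted p = 0.139).

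The balance between both genes was then described by a share chosen after their values had been seen, so no test is given. ATP6V0E2 held 15.1% ± 1.64 (SD, n = 4) of the summed counts of both genes under DMSO and 14.5% ± 2.23 under prexasertib. The share was 19.7% ± 0.95 at the low dose, 21.5% ± 2.65 in the combination and 35% ± 1.27 at the high dose. The lowest high-dose library stood at 33.8%, and the highest library of the combination at 23.6%. The summed level of both genes was 130 CPM under DMSO and 100 CPM at the high dose.

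**Figure D2:**
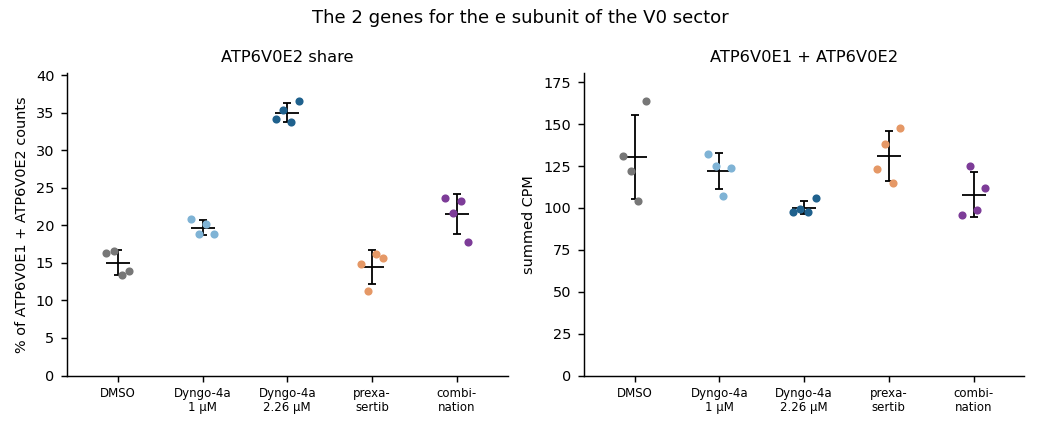
Left: counts of ATP6V0E2 as a percentage of ATP6V0E1 plus ATP6V0E2 (y axis) by group (x axis). Right: summed CPM of both genes. Points are libraries, with bars for the mean ± SD (n = 4). The high-dose libraries lie at 33.8% to 36.6%, above all others, while their summed level is 97.4 to 106 CPM.

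Other V0 genes were lower or not called. ATP6V0B measured 178, 210, 148 and 207 CPM under DMSO and 159, 140, 131 and 140 at the high dose. The highest high-dose library lay above the lowest DMSO library, so the groups overlapped. ATP6V0B fell by 0.38 ± 0.11 on the log2 scale (SE; adjusted p = 0.00665, edgeR); with replicates 1 and 3 alone the difference was -0.16 and the call was lost, and with replicates 2 and 4 alone it was -0.59.

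ATP6V0A2, an isoform of the large a subunit found on the Golgi and endosomes, measured 26.8, 26.8, 25.2 and 24.0 CPM under DMSO, 38.8, 28.1, 29.6 and 23.3 at the low dose and 21.7, 17.1, 19.8 and 20.1 at the high dose. Every high-dose library lay below all libraries of both other groups. Against the low dose it fell by 0.60 ± 0.15 on the log2 scale (SE; adjusted p = 0.00295, edgeR), and this call held without any single library. With replicates 2 and 4 alone the call was lost (-0.48, adjusted p = 0.115). Against DMSO the difference was -0.38 ± 0.15 and missed the threshold (adjusted p = 0.0539). The d subunit gene ATP6V0D1, which couples the ring to the central stalk, differed by -0.35 (adjusted p = 0.0877), and ATP6V0A1, the a isoform typical of neurons, by 0.12 (adjusted p = 0.698).

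Of the 8 V1 genes, 2 rose at the high dose and 0 fell, a share of 25% beside the 25.2% of all tested genes. ATP6V1D, a subunit of the rotating central stalk, measured 55.8, 56.9, 52.4 and 58.0 CPM under DMSO and 68.2, 65.7, 66.2 and 81.4 at the high dose. ATP6V1A, the catalytic subunit, measured 78.2, 81.5, 75.0 and 73.6 CPM under DMSO and 83.8, 96.7, 88.0 and 103 at the high dose. Neither gene had overlapping groups, although the steps between them were small. ATP6V1D rose by 0.34 ± 0.11 on the log2 scale (SE; adjusted p = 0.0229, edgeR), a call lost without DMSO replicate 3 (0.0621) or high-dose replicate 4 (0.104). ATP6V1A rose by 0.27 ± 0.10 (adjusted p = 0.0409), a call lost without DMSO replicate 1, 3 or 4 or high-dose replicate 2 or 4 (highest adjusted p 0.132), without the low-count filter (0.0928) and in a fit of these 2 groups alone (0.0558). An exon of EIF2S1, on the opposite strand, overlaps ATP6V1D, and its reads could be counted there if strand was not used. EIF2S1 had 11032 counts over all libraries against 6252 for ATP6V1D.

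The other 6 V1 genes were not called. These are ATP6V1B2, the partner of the catalytic subunit, ATP6V1C1, a tether that is released when V1 detaches, the peripheral stalk genes ATP6V1E1 and ATP6V1G1, the central stalk gene ATP6V1F and the regulator ATP6V1H. Their log2 fold changes lay between -0.23 (ATP6V1G1, adjusted p = 0.0847) and 0.18 (ATP6V1H, adjusted p = 0.382). Mean levels over all libraries were 50.4 CPM for ATP6V1B2, 31.8 for ATP6V1C1, 71.7 for ATP6V1E1, 86.8 for ATP6V1F and 27.2 for ATP6V1H. The summed level of the V1 genes was 653 ± 50.1 CPM under DMSO and 652 ± 39.9 at the high dose (SD, n = 4). That of the V0 genes was 465 ± 57.6 and 388 ± 35.6 CPM, and no test was made of these sums. The V0 sums overlapped, at 381 to 511 CPM under DMSO and 366 to 441 at the high dose. They hold no counts from ATP6V0C, the main proteolipid gene. The accessory genes ATP6AP1 and ATP6AP2, whose products help assemble the pump, averaged 92.9 and 67.9 CPM over all libraries and differed by 0.26 (adjusted p = 0.0552) and -0.07 (adjusted p = 0.654) on the log2 scale.

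**Figure D3:**
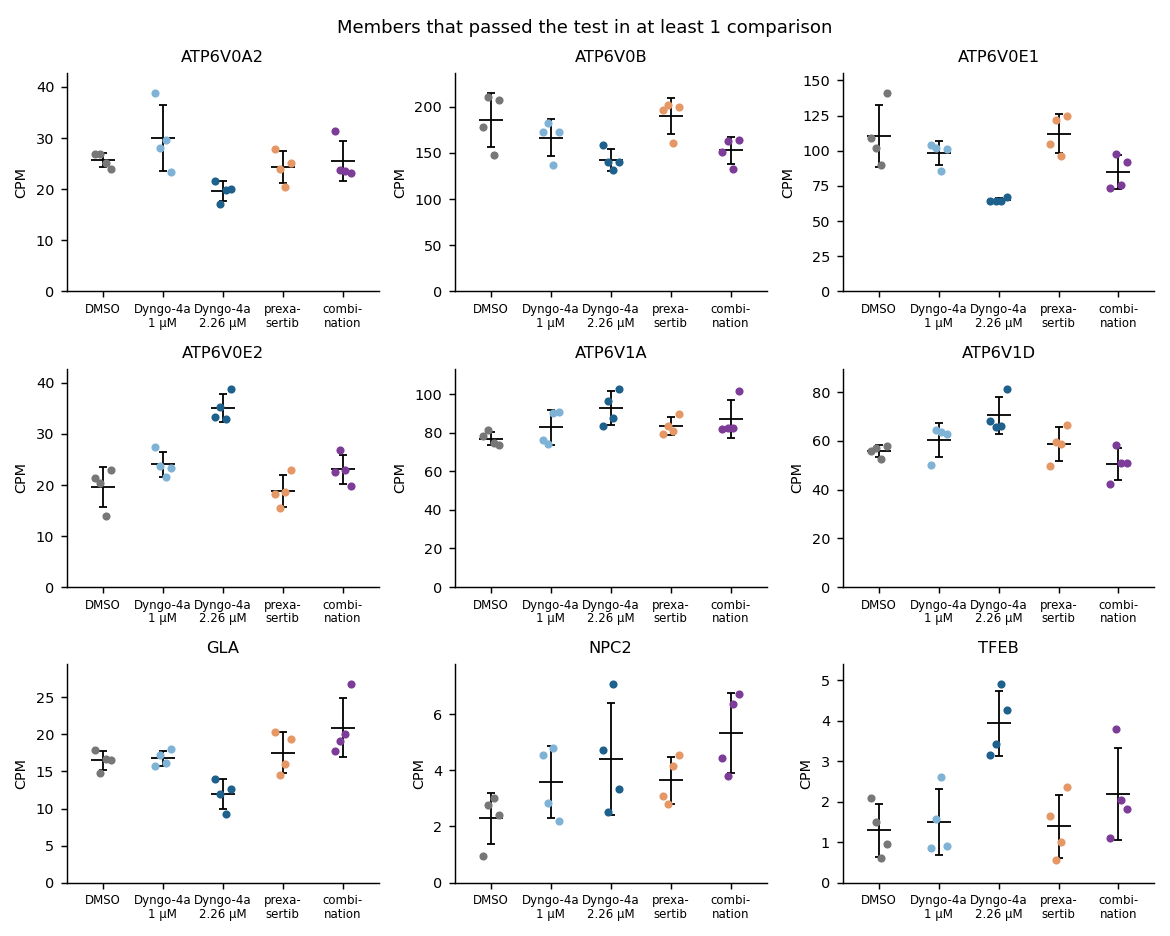
CPM (y axis, from 0) of the 9 genes called in at least 1 comparison, by group (x axis); points are libraries and bars the mean ± SD (n = 4). ATP6V0E1 lies at 64.1 to 67.4 CPM and ATP6V0E2 at 33.0 to 38.9 CPM at the high dose, apart from DMSO and the low dose.

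Among the lysosomal membrane and lumen genes, 1 of 11 tested was called at the high dose, beside the 25.2% of all tested genes. GLA, the alpha-galactosidase that degrades globotriaosylceramide, measured 17.9, 14.8, 16.7 and 16.6 CPM under DMSO, 15.8, 17.2, 16.1 and 18.0 at the low dose and 14.0, 11.9, 9.25 and 12.6 at the high dose. All high-dose libraries lay below those of both other groups. GLA fell by 0.48 ± 0.17 on the log2 scale against DMSO (SE; adjusted p = 0.0346, edgeR) and by 0.50 ± 0.17 against the low dose (adjusted p = 0.032). The call against DMSO was lost without any 1 of DMSO replicates 1, 3 and 4 and high-dose replicates 2, 3 and 4 (highest adjusted p 0.135), without the low-count filter (0.0836) and in a fit of these 2 groups alone (0.0581). The call against the low dose was lost without low-dose replicate 2 or 4 or high-dose replicate 2, 3 or 4 (highest 0.127), and under the same 2 other settings.

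Near the threshold stood a pair of cholesterol export genes. NPC1, the membrane transporter that takes cholesterol from NPC2, averaged 13.1 CPM over all libraries and differed by 0.51 ± 0.20 on the log2 scale (SE; adjusted p = 0.0507, edgeR), and NPC2 differed by 0.96 ± 0.37 (adjusted p = 0.056). With DESeq2 both were called (0.0488 and 0.0475), as was ATP6AP1 (0.0482); DESeq2 called 10 members in all, where it called 26.2% of all tested genes. The other membrane genes were LAMP1, LAMP2, a glycoprotein also needed for autophagy, at 41.2 CPM, and MCOLN1, which differed by -0.13, -0.23 and -0.13 with adjusted p of at least 0.178. The protective protein CTSA averaged 21.8 CPM, the cathepsin proteases CTSB, CTSD and CTSL 29.1, 65.6 and 34.1 CPM, and HEXA, the alpha chain of beta-hexosaminidase, 35.1 CPM. Their log2 fold changes lay between -0.31 (CTSA, adjusted p = 0.168) and 0.21 (CTSL, adjusted p = 0.179). On the opposite strand, exons of RMC1 overlap NPC1 (884 counts over all libraries against 1382) and those of PLTP overlap CTSA (2455 against 2305). Such reads could be counted at NPC1 and CTSA if strand was not used, which was not tested.

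TFEB (chr6:41683978-41736259, minus strand) was the member with the largest fold change at the high dose, at a low level. Its CPM were 2.09, 1.5, 0.605 and 0.961 under DMSO, from 11, 6, 3 and 6 counts, and 3.16, 3.42, 4.9 and 4.25 at the high dose, from 16, 19, 27 and 23 counts. All high-dose libraries lay above the highest DMSO library and above the highest low-dose library, at 2.61 CPM. TFEB rose by 1.60 ± 0.46 on the log2 scale (SE; adjusted p = 0.00856, edgeR), with a 95% interval of 0.62 to 2.58, and this call held without any single library. The call against DMSO was lost with replicates 1 and 3 alone (1.56, adjusted p = 0.0893) and with 2 and 4 alone (1.65, 0.0975). Against the low dose TFEB rose by 1.40 ± 0.45 (adjusted p = 0.0234). That call was lost without low-dose replicate 1 or 4 or high-dose replicate 3 (highest adjusted p 0.0798). It was also lost with replicates 1 and 3 alone (0.227) and with 2 and 4 alone (0.12).

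The related factors were not called. TFE3 was the most abundant of the family, at 19.3 ± 0.0992 CPM under DMSO and 21.6 ± 2.32 at the high dose (SD, n = 4; adjusted p = 0.503, edgeR). MITF, best known from melanocytes, measured 8.87 ± 2.02 and 7.76 ± 0.856 CPM (adjusted p = 0.649). Only the RNA of these factors was measured, not their location in the cell.

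The 5 members with a CLEAR core in the promoter, printed above, passed the test in 0 of the 8 comparisons with all libraries and 1 term per group. Over all other edgeR settings and comparisons, 3 of them were called in at least 1 fit. LAMP1 was called under a replicate block in the combination against prexasertib (adjusted p = 0.0416), where the block called 10% of all tested genes. The others were ATP6V1G1 and ATP6V0D1, both at the high dose. ATP6V1G1 was called under a block (0.00661), when replicates 1 and 3 were set apart from 2 and 4 by a term (0.0173) and without DMSO replicate 1 (0.0372). ATP6V0D1 was called under a block (0.0444), in replicates 2 and 4 alone (-0.70, 0.0173) and without DMSO replicate 3 (-0.48, 0.0167). At the high dose the block called 34.4% of all tested genes, the term 30.9% and replicates 2 and 4 alone 16.1%. Without DMSO replicate 1 the share was 22.3%, and without DMSO replicate 3 it was 22.5%. The block is an alternative only here, because same-number deviations of the high dose and DMSO did not all correlate above 0.1. They did for replicates 1, 3 and 4 (0.114, 0.122 and 0.19) but not for replicate 2 (0.0294). At the high dose against DMSO the log2 fold changes of the 5 members were -0.23 for ATP6V1G1, -0.35 for ATP6V0D1, -0.13 for LAMP1, -0.13 for MCOLN1 and -0.31 for CTSA. All 5 values were below 0, as were those of 15 of the 30 tested members and 6818 of all 13729 tested genes. The adjusted p of the 5 ran from 0.0847 to 0.800, and whether they moved together was not tested. Of the 3 members with an E-box core alone, ATP6V0E2 rose, ATP6V0B fell and CTSD, a lysosomal aspartic protease, was not called (adjusted p = 0.399).

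**Figure D4:**
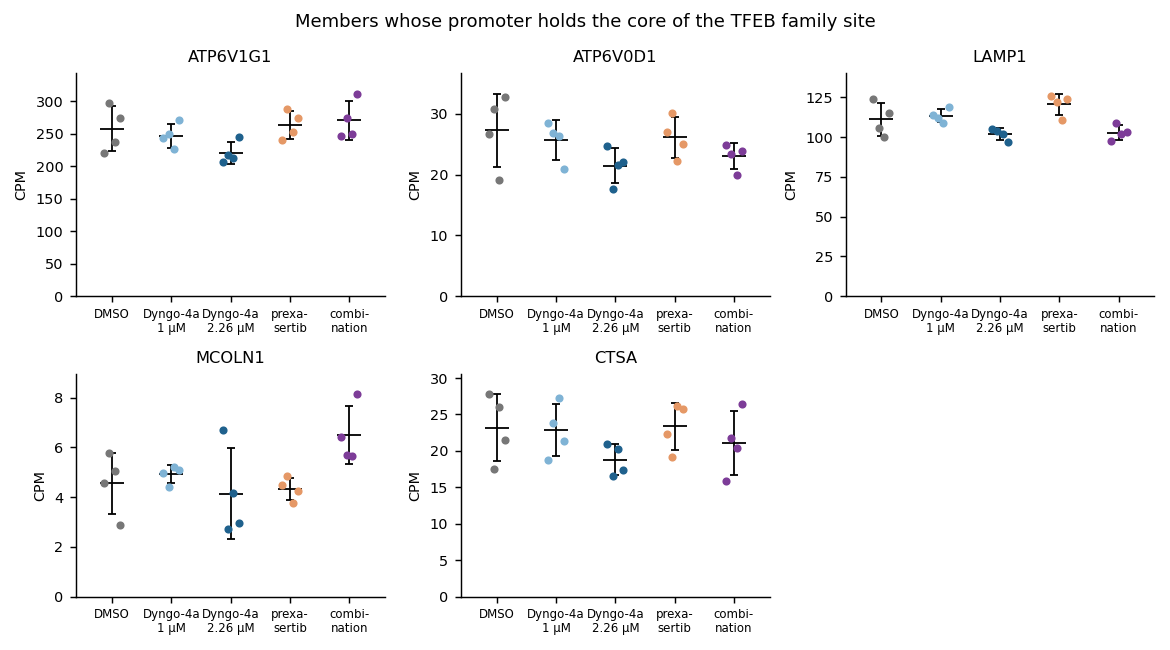
CPM (y axis, from 0) by group (x axis) of the 5 genes whose promoter holds the CLEAR core; points are libraries and bars the mean ± SD (n = 4). The groups overlap between DMSO and the high dose in all 5 genes, and MCOLN1 in the combination lies at 5.67 to 8.16 CPM.

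The low dose of Dyngo-4a gave no member call against DMSO. With edgeR 0 of 30 members passed the test, where 0.262% of all tested genes did, and DESeq2 and limma-voom called 0. Only 1 member (3.33%) was at an unadjusted p under 0.05, where 7.57% of all tested genes were. That gene was CTSD, at 81.3, 71.7, 68.5 and 68.5 CPM under DMSO and 72.9, 56.3, 57.3 and 41.6 at the low dose, and 1 low-dose library lay within the DMSO range. Its log2 fold change was -0.35 ± 0.13 (SE; adjusted p = 0.445, edgeR). With the replicate number as a block it was -0.36 and passed (adjusted p = 0.0386), where the block called 1.89% of all tested genes. ATP6V0E1 and ATP6V0E2 differed by -0.18 ± 0.11 and 0.29 ± 0.15 at the low dose (adjusted p = 0.789 and 0.691).

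The comparison of both doses asked which members differ between them. With 5 of 30 members called, 2 higher and 3 lower at the high dose, the share was 16.7%, where 20.2% of all tested genes were called (10.1% higher and 10.1% lower). The 5 were ATP6V0A2, ATP6V0E1, ATP6V0E2, GLA and TFEB, with the values given above. The libraries did not overlap for 8 of 30 members, where 21.0% of all tested genes had no overlap. With the replicate number as a block 8 members were called, where 29% of all tested genes were; ATP6V0B (-0.21, adjusted p = 0.0169), CTSL (0.30, adjusted p = 0.0373) and TFE3 (0.38, adjusted p = 0.044) joined the 5.

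Prexasertib alone left the members without a call. Against DMSO 0 of 30 passed the test with edgeR, where 0.00% of all tested genes did, and DESeq2 and limma-voom called 0. At an unadjusted p under 0.05 were 0 members, where 3.77% of all tested genes were. Log2 fold changes ran from -0.46 ± 0.26 for MITF to 0.69 ± 0.38 for NPC2 (SE; adjusted p = 1 for both), 2 genes of low counts. A replicate block likewise gave 0 members, where 0.168% of all tested genes were called. ATP6V0E1 measured 105, 122, 96.3 and 125 CPM and ATP6V0E2 18.2, 15.5, 18.6 and 23.0 CPM, both within or near the DMSO range. For ATP6V0E1 the difference was 0.02 ± 0.11.

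In the combination 2 of 30 members were called against DMSO (6.67%), 1 higher and 1 lower, where 6.30% of all tested genes were (3.47% higher and 2.83% lower). ATP6V0E1 measured 73.5, 97.7, 75.8 and 92.3 CPM, and 2 of these libraries lay above the lowest DMSO library. It fell by 0.38 ± 0.12 on the log2 scale (SE; adjusted p = 0.0376, edgeR). The call was lost without DMSO replicate 1 or 4 or combination replicate 1 or 3 (highest adjusted p 0.244), with limma-voom and in a fit of these 2 groups alone. ATP6V0E2, at 22.6, 26.9, 22.9 and 19.9 CPM, overlapped the DMSO libraries and differed by 0.23 ± 0.15 (adjusted p = 0.426).

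NPC2 was the member called higher. It had 5, 11, 15 and 15 counts under DMSO (0.952, 2.76, 3.02 and 2.4 CPM) and 20, 22, 28 and 37 in the combination (4.44, 3.79, 6.36 and 6.71 CPM), and the groups did not overlap. NPC2 rose by 1.22 ± 0.37 on the log2 scale (SE; adjusted p = 0.0381, edgeR), with a 95% interval of 0.43 to 2.01. The call was lost without DMSO replicate 1, 2 or 4 or combination replicate 3 or 4 (highest adjusted p 0.147). An exon of ISCA2 overlaps NPC2 on the opposite strand, and ISCA2 had 1551 counts over all libraries against 401 for NPC2. Its reads could be counted at NPC2 if strand was not used, which was not tested. TFEB, at 1.11, 3.79, 2.04 and 1.81 CPM, overlapped the DMSO libraries and differed by 0.79 ± 0.49 (adjusted p = 0.396). The libraries did not overlap for 3 of 30 members, ATP6V1A, ATP6AP1 and NPC2, where 10.9% of all tested genes had no overlap. All comparisons with DMSO share the same 4 control libraries.

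The combination was compared with prexasertib alone. The difference is that of adding Dyngo-4a only if the combination also held prexasertib at 2 nM, a dose that is not given. With edgeR 1 of 30 members was called, lower, where 3.44% of all tested genes were called in either direction and 1.04% were lower. It was again ATP6V0E1, which fell by 0.40 ± 0.12 on the log2 scale (SE; adjusted p = 0.043), a call lost without prexasertib replicate 1, 2 or 4 or combination replicate 1 or 3 (highest adjusted p 0.173). With the replicate number as a block 5 members were called, where 10% of all tested genes were; these were ATP6V0E1 and, in addition, ATP6V0B (-0.31, adjusted p = 0.0013), CTSD (-0.41, adjusted p = 0.00296), LAMP1 (-0.23, adjusted p = 0.0416) and ATP6V1F (0.24, adjusted p = 0.0471). The libraries did not overlap for 3 of 30 members, where 9.86% of all tested genes had no overlap. These were MCOLN1 (5.67 to 8.16 CPM in the combination and 3.76 to 4.84 under prexasertib), CTSL (33.4 to 40.4 and 26.2 to 30.6 CPM) and LAMP1 (97.7 to 109 and 111 to 126 CPM), none of which passed the test in the fit without a block.

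Against the low dose the combination gave 0 of 30 members with edgeR, where 3.85% of all tested genes were called. An unadjusted p under 0.05 was found for 1 member (ATP6V1D, -0.25, adjusted p = 0.265) and for 14.8% of all tested genes. DESeq2 and limma-voom called 0 members. A replicate block gave 0 members too, where 8.37% of all tested genes were called. The interaction, the effect of Dyngo-4a with prexasertib minus its effect alone, assumes that the combination used 1 µM Dyngo-4a and 2 nM prexasertib. It gave 0 of 30, where 0.284% of all tested genes were called, and 0 with DESeq2 or limma-voom. An unadjusted p under 0.05 was found for 3 members (10%) and for 6.56% of all tested genes. These 3 were CTSL (0.41, adjusted p = 0.572), LAMP1 (-0.25, adjusted p = 0.741) and ATP6V1D (-0.33, adjusted p = 0.749).

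Lists of further pump and lysosome genes were counted at the high dose against DMSO beside the 25.2% of all tested genes. Of 15 tested genes for tissue-restricted subunits, assembly factors and regulators of the pump, 5 rose and 1 fell. The count of 6 was 2 without high-dose replicate 2 and 3 without high-dose replicate 3. Those fits called 22% and 21.5% of all tested genes. NCOA7, whose product binds the V-ATPase, went from 18.5 ± 2.43 to 48.2 ± 5.36 CPM (SD, n = 4), a rise of 1.38 ± 0.14 on the log2 scale (SE; adjusted p = 1.08e-09, edgeR). DMXL1, a subunit of the complex that reassembles V1 on V0, rose by 0.66 (adjusted p = 0.000374). TMEM199, an assembly factor, and ATP6V1G2, the neuronal form of subunit G, measured -0.40 and 0.53; the first call was lost without DMSO replicate 1 or high-dose replicate 2 or 3, and the second without DMSO replicate 3 or high-dose replicate 2.

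The other lysosomal membrane list had 1 higher and 4 lower of 21 tested genes. CD63, a tetraspanin of late endosomes, fell from 654 ± 42.7 to 401 ± 47.3 CPM (SD, n = 4; log2 fold change -0.70, adjusted p = 9.27e-07, edgeR). The amino acid exporter SLC36A1 fell by 1.01, LAPTM4A fell by 0.32 and SCARB2, the receptor that carries beta-glucocerebrosidase to lysosomes, rose by 0.35. Among 40 tested other hydrolases and activators 4 rose and 5 fell. MANBA, beta-mannosidase, rose by 1.45 ± 0.25 (SE; adjusted p = 3.41e-05) and the sialidase NEU1 by 0.68, while NAGLU, which degrades heparan sulfate, fell by 1.00 and the acid phosphatase ACP2 by 0.90.

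Sorting genes, which carry hydrolases to lysosomes, had 3 higher and 2 lower of 14 tested. The count of 5 was 3 without DMSO replicate 3 or 4 or high-dose replicate 1 or 3. Those fits called 22.5%, 20.6%, 23.1% and 21.5% of all tested genes. GNPTAB, which makes the mannose 6-phosphate tag, rose by 0.72 (adjusted p = 0.000806, edgeR). SCARB2, the higher gene of the membrane list above, is on the sorting list too and was counted in both. Genes that control TFEB at the lysosome had 2 higher and 3 lower of 21. The count of 5 was 2 without DMSO replicate 2 (21.2% of all tested genes called). It was 3 without DMSO replicate 4 (20.6%) or high-dose replicate 3 (21.5%). FNIP1, a partner of folliculin, rose by 0.49, and the calcineurin subunit PPP3CB fell by 0.45. Of 17 autophagy genes known as targets of the TFEB family, 1 rose and 3 fell. SQSTM1, the cargo receptor p62, went from 104 ± 4.71 CPM under DMSO to 55.2 ± 8.07 at the high dose, a log2 difference of -0.91 ± 0.10 (SE; adjusted p = 6.17e-09), the coactivator gene PPARGC1A rose by 0.89 and the tethering gene VPS18 fell by 0.60. SQSTM1 was the single gene of these 6 lists called at the low dose against DMSO (-0.43, adjusted p = 0.0318); this call did not hold when any 1 of DMSO replicates 1, 2 and 3 and low-dose replicates 1, 3 and 4 was left out (highest adjusted p 0.131), nor with library sizes alone as scaling (0.0599).

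**Figure D5:**
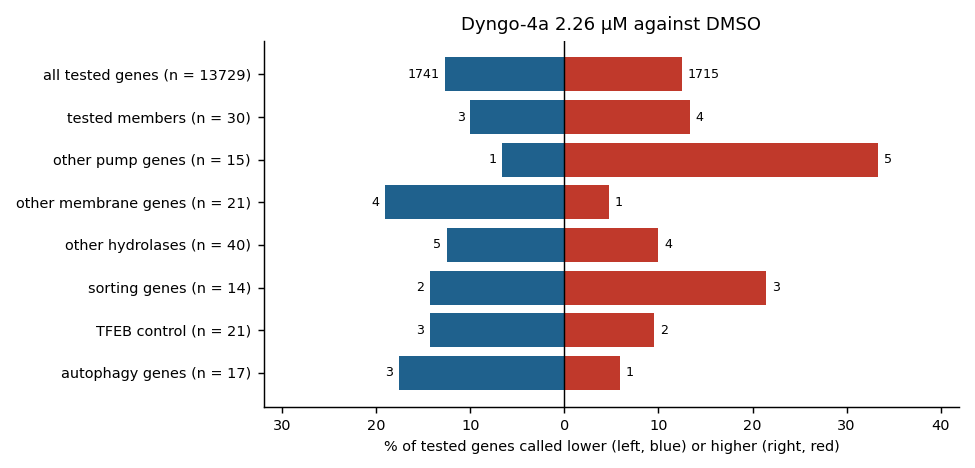
Percentage of tested genes called lower (left, blue) or higher (right, red) at the high dose against DMSO, for all 13729 tested genes, the 30 tested members and 6 further lists (y axis); numbers beside the bars are genes. All tested genes show 12.7% lower and 12.5% higher, and the members 3 lower and 4 higher.

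In the combination against DMSO the same 6 lists held few calls beside the 6.30% of all tested genes. Of 40 hydrolases 3 rose and 0 fell. NEU1 went from 19.8 ± 2.83 to 41.9 ± 5.67 CPM (SD, n = 4), a rise of 1.07 ± 0.15 on the log2 scale (SE; adjusted p = 3.52e-06, edgeR), and ARSA, arylsulfatase A, rose by 1.22 (adjusted p = 0.00358). The third was the protease gene CTSV (1.70, adjusted p = 0.0168), named after its values were seen, whose call was lost without DMSO replicate 1 or combination replicate 3. GNPTAB was the 1 sorting gene called (0.63, adjusted p = 0.0102), a call lost without combination replicate 1 (0.0856). The pump, membrane, TFEB control and autophagy lists had 0 calls with edgeR and 2, 3, 2 and 3 genes at an unadjusted p under 0.05. These were 13.3%, 14.3%, 9.52% and 17.6% of their tested genes, all below the 19.5% of all tested genes. DESeq2 called 1 TFEB control gene and 1 autophagy gene, both of which were RRAGD, a gene on both lists.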

How the data were processed

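The 20 libraries were made from total RNA with a QuantSeq 3′ kit with molecular barcodes and read single-end, per the labels' protocols. The deposited values are raw gene counts; the submitters' processing notes name the build GRCh38, the aligner STAR (2.7.2b), the packages limma (3.50.3) and edgeR (3.36.0) and FastQC (0.11.7). The annotation release, the strand setting and any collapsing of barcodes were not given in the sources used here.

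Members were matched by Ensembl identifier with GENCODE 29. Genes were filtered with filterByExpr (minimum count 10, minimum total 15), leaving 13729 genes with 99.6% to 99.8% of the counts. TMM factors ran from 0.968 to 1.03. One edgeR 4.0.16 model (R 4.3.3; robust quasi-likelihood fit and F-test, 1 term per group, 15 residual degrees of freedom, biological coefficient of variation 12.5%) covered all libraries. Two-sided p-values were adjusted over the 13729 genes of each comparison (Benjamini-Hochberg), and called means an adjusted p below 0.05. CPM are scaled by TMM, and ± beside a log2 fold change is a standard error. Floors from 0 counts cover counting error only. Libraries of 1 group correlated at Pearson's r of 0.976 to 0.985 (genes are the points and are no replicates), and the lowest chi-square per degree of freedom was 3.07, so no library was counted as a copy.

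The members and lists were named for known roles, with earlier results of these data known. Each member was accounted for; members called in any comparison were given with their values, and of each other list at most the 4 genes of smallest p at the high dose and the 2 in the combination, of which the text names a subset. Alternatives were library sizes alone, relative log size factors, no filter, 1 CPM in 4 libraries, DESeq2 1.42.0, limma-voom (limma 3.58.1), the compared groups alone, a replicate block, a term for replicates 1 and 3 against 2 and 4, each of these subsets alone, and leaving out each library. No label says that replicate numbers pair libraries. Same-number deviations from the group means were correlated in each comparison. They correlated above 0.1 in every pair for the low dose, prexasertib, both doses and the combination against each single agent (lowest 0.123). Blocked counts stand beside those results. This was not so against DMSO for the high dose (lowest 0.0294) and the combination (0.0266) or for the interaction (0.0266). Blocked results for these comparisons are given as alternatives only. The fits were tested on simulated data with known changes.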

Additional observations from a re-analysis of the deposited data

Results flagged for a closer look

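In 10 of 150 sets of 4 libraries (30 tested members in 5 groups), the highest or lowest library stood apart from the other 3, by a gap above Dixon's 95% critical value; chance gives about 1 in 20. Under DMSO, CTSB was low in replicate 2, at 25.6 CPM against 32.2 to 33.1 in the others. At the low dose, ATP6V1D was low in replicate 1 (50.1 CPM against 62.9 to 64.4). At the high dose, ATP6V1D was high in replicate 4 (81.4 against 65.7 to 68.2 CPM), a library without which its call was lost. ATP6V0E1 was high in the same library by a small step (67.4 against 64.1 to 64.6 CPM), and MITF was low in replicate 2 (6.48 against 8.12 to 8.28 CPM). Under prexasertib, ATP6V0B was low in replicate 3 (161 against 196 to 202 CPM) and MITF in replicate 1 (4.09 against 7.05 to 7.27 CPM). In the combination, ATP6V0A2 was high in replicate 1 (31.3 against 23.2 to 23.8 CPM), CTSD in replicate 2 (70.6 against 52.2 to 54 CPM) and ATP6V1A in replicate 4 (102 against 82.1 to 82.4 CPM).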

How the results depend on the processing

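Of the alternatives run on single calls, none changed the sign of a difference; over all member calls and alternatives the call was kept 223 times and lost 62 times. With the replicate number as a block, counts of called members, with the percentage of all tested genes called in the same fit, were 13 at the high dose (34.4%), 1 at the low dose (1.89%), 5 in the combination against DMSO (14.4%), 8 between doses (29%) and 5 against prexasertib (10%); the other 3 comparisons stayed at 0. At the high dose the block added ATP6V0A2, ATP6V0D1, ATP6V1G1, ATP6AP1, NPC1 and NPC2. For the high dose and the combination against DMSO the block is an alternative only. Same-number deviations there correlated above 0.1 for replicates 1, 3 and 4 but not for replicate 2 (0.0294 and 0.0266). A term for replicates 1 and 3 against 2 and 4 gave 12 at the high dose (30.9%), 4 in the combination against DMSO (10.4%) and 3 against prexasertib (6.62%), so the background rose as well. Replicates 1 and 3 alone gave 3 at the high dose (16.1%), 3 between doses (10.5%) and 2 against prexasertib (3.53%), and replicates 2 and 4 alone 4 (16.1%), 3 (11.5%) and 0 (0.753%), with 0 in the combination against DMSO (1.6%); these fits hold fewer libraries. The combination against DMSO had 1 call with limma-voom (5.78%) and 1 in the compared groups alone (5.05%), and the combination against prexasertib had 2 without a filter (1.74%) and 2 in the compared groups alone (3.58%). The cause of these changes was not tested. Leaving out each library gave 6 to 10 calls at the high dose, where 20.6% to 23.1% of all tested genes were called. Between doses it gave 3 to 5 (15.5% to 18%). It gave 0 to 3 in the combination against DMSO (4.26% to 6.18%) and 0 to 2 against prexasertib (2.21% to 3.4%). The other 4 comparisons gave 0, where at most 3.57% of all tested genes were called. The combination against DMSO had 0 calls without DMSO replicate 1 (5.11%) or combination replicate 3 (4.3%). Among the other lists, in the combination against DMSO, the sorting genes had 2 calls in place of 1 with DESeq2, the block and the replicate term, and 0 in replicates 2 and 4 alone; the hydrolases had 1 in place of 3 in replicates 2 and 4 alone; and the remaining lists had 1 or 2 in place of 0 under some of these settings or with library sizes alone. At the high dose, replicates 1 and 3 alone gave 1 autophagy call (from 4), 2 TFEB control calls (from 5) and 3 sorting calls (from 5), and replicates 2 and 4 alone 5 hydrolase calls (from 9), 2 pump calls (from 6) and 3 sorting calls. Depth limits TFEB and NPC2, with 3 to 39 counts per library.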
